A study of Homo sapiens with 12 samples.

Results

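The matrix metalloproteinases (MMPs) and their tissue inhibitors (TIMPs) were followed in squamous carcinoma cells of the head and neck (HNSCC) exposed to interferon alpha (IFNα). The 10 genes were taken by symbol from the table of 60099 genes, namely the collagenases MMP1 and MMP13, the stromelysins MMP3 and MMP10, the matrilysin MMP7, the gelatinases MMP2 and MMP9, the membrane-type enzyme MMP14, and the inhibitors TIMP1 and TIMP2. Each symbol matched 1 row. Their level in untreated cells of each line and their change with dose were examined.

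Cal27 and HN30 are established HNSCC lines, and both were sequenced untreated and 24 h after addition of 20 or 200 ng/ml IFNα, a type I interferon and inducer of the antiviral state. The 12 libraries carry a letter and a replicate number. A and D were untreated, B and E received 20 ng/ml (low dose), and C and F received 200 ng/ml (high dose), with 2 replicates for each letter. Letters A to C and D to F each hold every dose once and are treated as the 2 lines, called line set A-C and line set D-F, because the labels do not say which letters belong to which line. No other treatment, deletion or transgene is named for any group, and nothing in the labels says that the 2 replicates of a letter came from separate cultures, so the p-values measure the spread between these libraries, which may be technical.

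MMPs are zinc-dependent endopeptidases that are made as inactive proenzymes and cut collagens, laminins, other matrix proteins and many cell surface proteins once the propeptide is removed. Collagenases open fibrillar collagen, gelatinases degrade denatured and basement membrane collagen, and MMP14 sits on the cell surface where it activates proMMP2 together with TIMP2. TIMPs bind the active site with equal stoichiometry and block it. In squamous carcinoma, MMP activity is best known for its part in the remodelling of the basement membrane and stroma.

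The 8 MMP genes share the zinc-binding signature of the catalytic domain, and its coding sequence is shown because it is what makes them members of one enzyme family. Each stretch of 33 bases is given 5′ to 3′ in coding orientation, read from the GENCODE transcript sequences on GRCh38. Capitals mark the 12 bases that the codons for the signature's histidine, glutamate and glycine residues fix.
MMP1: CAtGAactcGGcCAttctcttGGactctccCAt
MMP13: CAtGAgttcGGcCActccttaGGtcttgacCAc
MMP3: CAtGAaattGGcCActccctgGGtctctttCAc
MMP10: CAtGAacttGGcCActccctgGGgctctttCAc
MMP7: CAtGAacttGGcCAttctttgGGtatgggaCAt
MMP2: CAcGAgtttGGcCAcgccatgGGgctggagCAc
MMP9: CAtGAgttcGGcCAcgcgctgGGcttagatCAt
MMP14: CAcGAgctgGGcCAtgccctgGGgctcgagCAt

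Compared with MMP13, the other stretches had between 22 (MMP1, MMP7 and MMP14) and 25 (MMP2) identical bases out of 33. The stretch lies in exon 5 of 10 of MMP13, at chr11:102952115-102952147 on the minus strand. It lies in exon 5 of MMP1, MMP3, MMP10, MMP7 and MMP14 as well, and in exon 8 of 13 of MMP2 and MMP9. The TIMP genes encode no such site.

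The family resemblance seldom extended to longer runs. No 31-base word of the main MMP13, MMP1, MMP7, MMP9 or MMP14 transcript occurred in a transcript of another gene, whereas MMP3 and MMP10 shared 125 such words, 6.29% of those of MMP3 and 7.23% of those of MMP10. Reads of MMP3 and MMP10 can therefore be divided wrongly, and their values are uncertain. In addition, 4.69% of the words of the main TIMP2 transcript also occurred in CEP295NL, a gene on the same strand that overlaps TIMP2, and 3.93% of those of the main MMP2 transcript in AC007336.3, which overlaps MMP2 on the same strand.

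MMP7 (chr11:102520508-102530753), MMP10 (chr11:102770503-102780628), MMP1 (chr11:102789920-102798160), MMP3 (chr11:102835801-102843803) and MMP13 (chr11:102942995-102955734) lie on the minus strand in a 435.2 kb stretch of chromosome 11 that holds 9 MMP genes. MMP2 lies at chr16:55389700-55506691, MMP9 at chr20:46008908-46016561, MMP14 at chr14:22836557-22849027, TIMP1 at chrX:47582313-47586789 and TIMP2 at chr17:78852977-78925387, of which only TIMP2 is on the minus strand (GRCh38). TIMP1 lies inside SYN1, a gene of the opposite strand, and MMP1, MMP3 and MMP10 overlap the pseudogene WTAPP1 on the opposite strand. The libraries kept the strand of origin, but whether the counting used it is not given in the sources used here.

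Levels are given as TPM, the deposited measure scaled for transcript length and sequencing depth, which can be compared between genes. Changes are log2 fold changes with their standard error (SE), from edgeR's quasi-likelihood test on the deposited estimated counts. A gene passed where the p-value, adjusted by the Benjamini-Hochberg method over 19944 genes, was at most 0.05. Of the 10 genes, 7 had enough counts to be tested, and MMP3, MMP9 and MMP10 did not. The total count per library was between 12670755 and 16056734 in the controls and between 10517448 and 11854183 at the high dose, so that every control was deeper than every high-dose library. As a check of the labels of treated and untreated libraries, 10 of 10 interferon-stimulated genes rose at either dose. Their median log2 change was 4.39 at the high and 4.16 at the low dose. Between the doses the median was 0.31 and 2 of the 10 passed, so the low and high labels are less firmly checked. The 10 epithelial markers, squamous and general ones together, summed to 2580 to 3840 TPM over the 12 libraries. Of the squamous ones, KRT5 stood at 1020 and 1090 TPM in A and at 242 and 248 TPM in D, and KRT14 had 0 to 3 counts in each library of D-F, where KRT8 and KRT18 led the sum. Of the 10 fibroblast markers, 4 (DCN, PDGFRA, POSTN and THY1) never exceeded 3 counts, and neither did 6 of the 10 leukocyte markers (PTPRC, CD3E, LYZ, MPO, AIF1 and TYROBP). Other markers of these lists were counted. FBLN1 held 216 to 1454 counts per library, FAP 251 to 442 in D-F, and CSF1R, of the leukocyte list, 40 to 95.

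In untreated cells the same enzyme led in both line sets. MMP14 stood at 84.1 and 89.5 TPM in A1 and A2 and at 107 and 86.2 TPM in D1 and D2. In set A-C, TIMP2 (17.2 to 33.8 TPM) and TIMP1 (22.0 to 27.5 TPM) came next with overlapping ranges, then MMP13 (7.73 to 10.1 TPM), then MMP7 (3.32 to 4.78 TPM) and MMP2 (3.04 to 3.77 TPM), which overlapped each other. In set D-F, TIMP1 (64.0 to 69.0 TPM) was followed closely by MMP2 (58.9 to 63.3 TPM), then by TIMP2 (32.4 to 48.0 TPM), and MMP13 (0.963 to 1.20 TPM) overlapped MMP1 (0.934 to 1.02 TPM). MMP1 lay at 0.736 to 1.02 TPM and MMP10 at 0.247 to 0.565 TPM in the 4 controls, and MMP3 and MMP9 were listed at 0 in all 4.

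**Figure D1:**
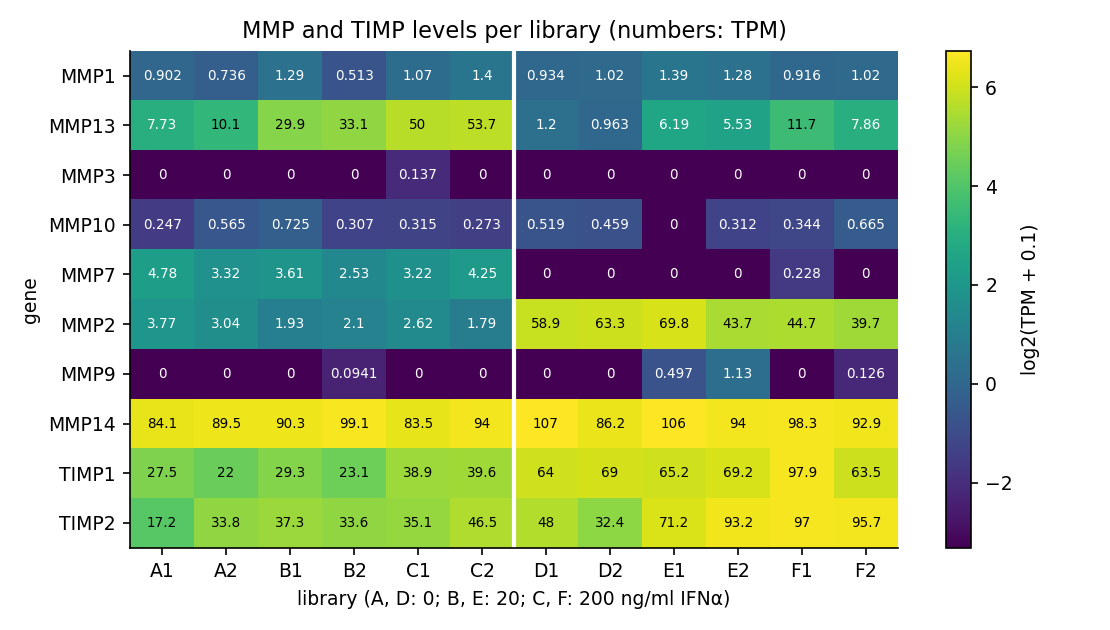
Level of the 10 genes in each of the 12 libraries, with genes in rows and libraries in columns. Colour shows log2(TPM + 0.1), the printed numbers are TPM, and the white line separates line sets A-C and D-F. MMP14 is high in every library, MMP2 is high in D to F, and MMP13 grows brighter from A to C and from D to F.

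The 2 untreated lines differed in MMP2, TIMP1, MMP13 and MMP7. These were 4 of the 7 tested members, where 46.4% of all tested genes passed in this comparison (24.1% higher and 22.4% lower in D), so the share of members lies close to that of genes in general. MMP7 had enough counts to be tested only through A-C, where it is high. Its pass therefore follows in part from the filter on low counts and adds no support to this count. Each of the 4 differed by more than 2-fold. In bulk RNA, fewer cells that express a gene and less RNA in each cell cannot be told apart.

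MMP2, the gelatinase that MMP14 activates, had the larger excess of the 2 members that were higher in D.
MMP2 held 110 and 108 counts in A1 and A2 against 1511 and 2089 in D1 and D2. The libraries of the line sets did not overlap at any dose.
Its log2 difference between D and A was 3.90 (SE 0.20, adjusted p = 6.83e-07, edgeR), or 14.9-fold.
Of the 3 tested fibroblast markers, FBLN1 and FAP were higher in D and PDGFRB was 3.77-fold lower, while LUM and COL3A1 were at 0 counts in every library of D-F. The list summed to 28.1 and 26.1 TPM in A1 and A2 and 126 and 108 TPM in D1 and D2, a sum that FBLN1 and FAP carried. Its part in the MMP2 difference was not tested. TIMP1, an inhibitor of most secreted MMPs, was 2.30-fold higher in D (log2 difference 1.20, SE 0.16, adjusted p = 0.000208, edgeR), with 474 and 419 counts against 160 and 195. TIMP2 and MMP14, the other parts of the surface complex that activates proMMP2, did not pass. Their log2 differences were 0.44 (interval of 2 SE from -0.19 to 1.08) and 0.03 (-0.18 to 0.23).

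MMP13, collagenase 3, was lower in D. A1 and A2 held 163 and 253 counts and D1 and D2 held 29 and 24, an 8.46-fold difference (log2 -3.08, SE 0.25, adjusted p = 1.06e-05, edgeR). MMP7, a small enzyme without the hemopexin domain that epithelia secrete, was counted 44 and 40 times in A1 and A2 and not at all in D1 and D2. Over all doses it was found with 28 to 44 counts in each library of A-C and with 0 to 2 in each of D-F. Against 3 counts per library as the floor, MMP7 was at least 14.6-fold lower in D than in A, and a count of 0 in D1 or D2 allows up to 0.207 or 0.201 CPM (counts scaled to the library total). MMP1, collagenase 1, held 14 and 15 counts in A and 16 and 19 in D, a log2 difference of 0.13 (interval -0.77 to 1.03) that did not pass.

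The promoter of MMP7 was the one among those at hand in which the binding motif of AP-1, the factor best known for driving MMP genes, was found. Promoter sequences of 300 bases (250 before and 50 after the start, RefSeq, GRCh38.p14) were at hand for MMP7, MMP10, MMP14 and TIMP1. Both strands were searched for TGAGTCA (AP-1), GAAANNGAA (the core of the interferon-stimulated response element) and TTCNNNGAA (the interferon-gamma activated site, GAS). AP-1 was found in MMP7, starting 67 bases before the start, and the interferon element core in MMP10, starting 214 bases before it. No match of the 3 patterns was found in the windows of MMP14 and TIMP1. Of 27305 promoters, 4.92% held the AP-1, 8.29% the interferon element core and 7.88% the GAS pattern, and overlaps between patterns were counted for each. No promoter was at hand for MMP1, MMP2, MMP3, MMP9, MMP13 or TIMP2, so these were not searched. Whether the AP-1 match plays a part in the level of MMP7 in either line was not tested. The 60 bases from 100 to 41 before the MMP7 start (chr11:102530788-102530847, minus strand) are shown with this match in capitals.
MMP7 promoter: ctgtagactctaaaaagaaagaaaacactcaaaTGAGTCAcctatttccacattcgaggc

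With IFNα, MMP13 stood out. It rose at either dose in either line set, and it was the one member that changed by at least 2-fold on average over the line sets. In set A-C its level was 7.73 and 10.1 TPM without IFNα, 29.9 and 33.1 TPM at the low dose and 50 and 53.7 TPM at the high dose. In set D-F it was 1.20 and 0.963 TPM, then 6.19 and 5.53 TPM, then 11.7 and 7.86 TPM. Within each set the libraries of the 3 doses did not overlap, and the highest level of D-F, 11.7 TPM in F1, lay just above both untreated libraries of A-C.

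Averaged over both sets, MMP13 rose 6.97-fold at the high dose (log2 change 2.80, SE 0.17, adjusted p = 5.28e-06, edgeR) and 4.10-fold at the low dose (log2 change 2.03, SE 0.17, adjusted p = 8.15e-05, edgeR). In A-C it rose 6.10-fold (log2 2.61, SE 0.21) at the high and 3.60-fold (1.85, SE 0.21) at the low dose. In D-F the rise was 7.97-fold (2.99, SE 0.25) and 4.67-fold (2.22, SE 0.26). All 4 of these changes passed, with adjusted p-values of 0.000121, 0.00174, 0.000101 and 0.00112 in edgeR. The change did not differ detectably between the line sets, since the difference was 0.38 (interval -0.26 to 1.03, adjusted p = 0.591, edgeR) at the high and 0.37 (-0.28 to 1.03, adjusted p = 0.757) at the low dose.

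Between the doses MMP13 was 1.70-fold higher at 200 than at 20 ng/ml (log2 0.77, interval 0.47 to 1.06), and every high-dose library exceeded every low-dose library of its set. This difference did not pass in edgeR (adjusted p = 0.139, unadjusted p = 0.000517) but passed in DESeq2 (adjusted p = 0.00151). Over all genes 0.135% passed in edgeR between the doses, and no member did, while MMP13 and TIMP1 (unadjusted p = 0.0114) had an unadjusted p below 0.05. The rise passed under every alternative tried for the dose changes and with each library left out in turn.

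**Figure D2:**
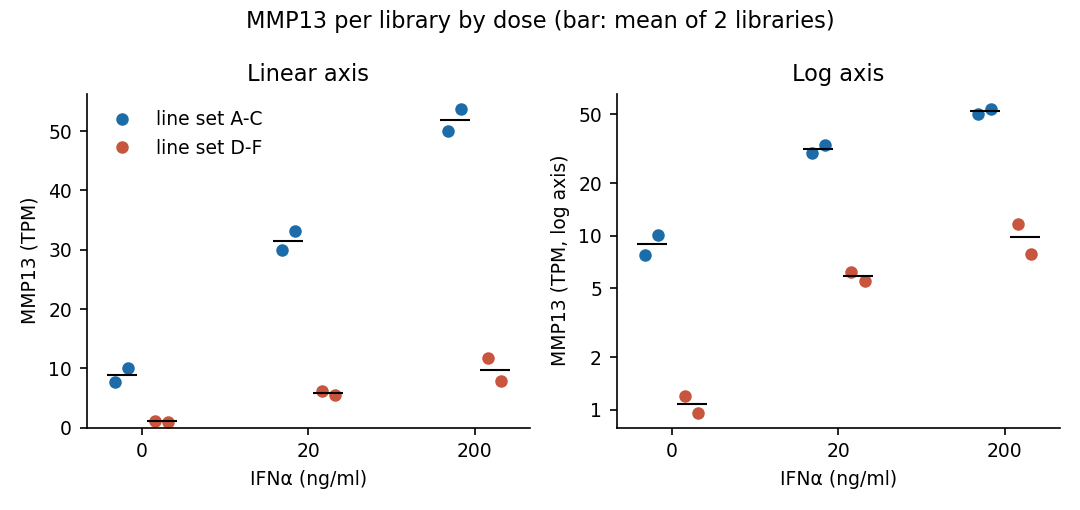
MMP13 level (TPM) in each library against IFNα dose, on a linear axis at the left and a log axis at the right. Points are libraries, 2 for each dose and line set, and black bars are their means. Set A-C climbs from 7.73 and 10.1 to 50 and 53.7 TPM, and set D-F lies lower and climbs alongside it on the log axis.

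The share of MMP13 among the MMP transcripts grew with dose in both line sets. Of the summed TPM of the 8 MMP genes, MMP13 made up 7.62% and 9.46% in A1 and A2, 23.4% and 24.0% in B1 and B2, and 35.5% and 34.6% in C1 and C2. In D-F its share went from 0.716% and 0.633% through 3.37% and 3.79% to 7.52% and 5.52%. MMP14 fell as a share in A-C, from 82.8% and 83.4% to 59.3% and 60.5%, although its level stayed between 83.5 and 99.1 TPM. In D-F, MMP2 made up 27.9% to 41.7% and MMP14 56.7% to 65.3% of the sum. The sum itself was 101 and 107 TPM in A, 141 and 155 TPM in C, 168 and 152 TPM in D and 156 and 142 TPM in F.

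**Figure D3:**
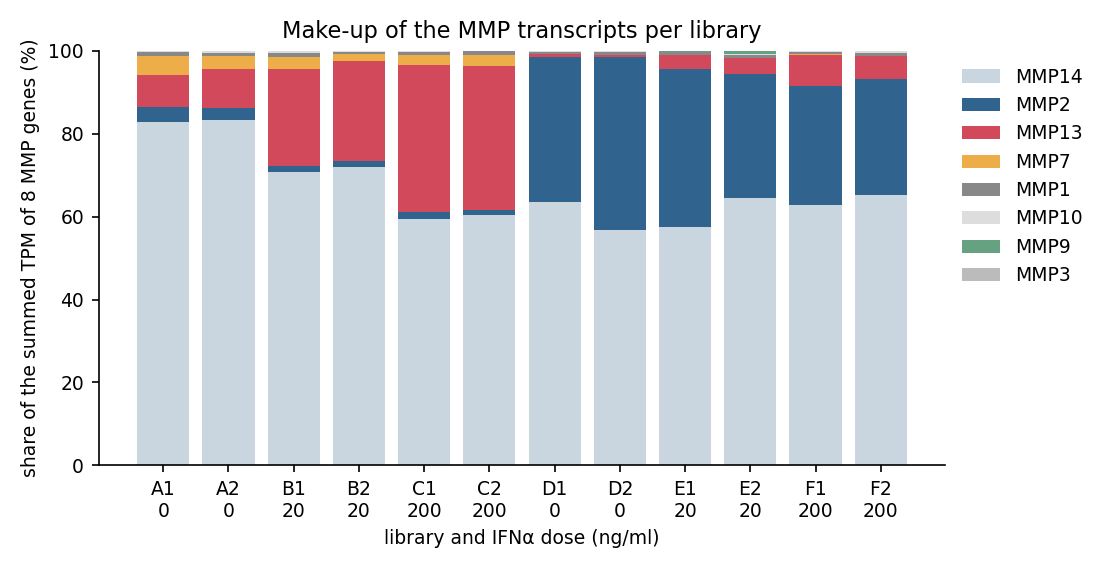
Share of the summed TPM of the 8 MMP genes (%) that each gene made up, as stacked bars, 1 for each library with its IFNα dose in ng/ml. The red part (MMP13) widens from A to C and, from a low level, from D to F, and the dark blue part (MMP2) is wide in D to F alone.

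At the high dose 4 of the 7 tested members passed in the average over both line sets, MMP13, TIMP1 and TIMP2 upward and MMP2 downward. Of all tested genes 9.55% passed there, 4.98% upward and 4.57% downward. At the low dose 1 member passed, MMP13, against 3.93% of genes (2.33% upward and 1.6% downward). Within A-C the members that passed were MMP13 and TIMP1 at the high dose and MMP13 at the low dose, where 7.18% and 1.11% of genes passed. Within D-F MMP13 alone passed at either dose, where 5.84% and 3.37% of genes passed. No member's change differed between the line sets, in comparisons in which 1.88% of genes passed at the high and 0.371% at the low dose. None had an unadjusted p below 0.05 there in edgeR, and none passed in DESeq2 or limma. The median log2 change of the 6 tested members other than MMP7, whose counts in D-F were too low for a change, was 0.33 at the high and 0.16 at the low dose, beside -0.01 over all tested genes at each dose. The 2 doses were compared with the same controls.

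TIMP2, which both inhibits MMPs and bridges proMMP2 to MMP14, passed at the high dose on average over the line sets and in no other comparison with the controls in edgeR. Its counts were 457 and 1208 in A, 1038 and 1099 in B, 910 and 1033 in C, 1397 and 989 in D, 1547 and 2277 in E, and 2251 and 2235 in F. The depth of the libraries differed, so the groups were set side by side after normalization. As normalized CPM, A1 held 36.8 and A2 78.0, B1 and B2 held 86.1 and 76.2, and C1 and C2 held 82.0 and 106, so that A1 stood far below the rest and B2 below A2. In D-F the values were 92.6 and 64.0, then 131 and 181, then 187 and 181, and both treated groups lay above the controls. The average rise at the high dose was 1.96-fold (log2 0.97, SE 0.22, adjusted p = 0.0255, edgeR), and it did not pass without C2, D2, F1 or F2 (adjusted p of up to 0.0959) or in a fit of the compared groups alone (adjusted p = 0.0521). At the low dose it was 0.75 (SE 0.22, adjusted p = 0.115). In D-F the high-dose change was 1.23 (SE 0.32, adjusted p = 0.0536, edgeR) and passed in DESeq2 (adjusted p = 0.0011), and in A-C it was 0.70 (interval 0.07 to 1.34, adjusted p = 0.23), which became 0.26 without A1 and 1.34 without A2.

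TIMP1 was higher at the high dose by 1.33-fold on average (log2 0.41, SE 0.11, adjusted p = 0.046, edgeR). In A-C its counts were 160 and 195, then 180 and 177, then 200 and 211, in libraries whose depth was lowest at the high dose, and its level went from 27.5 and 22.0 TPM to 38.9 and 39.6 TPM. The change in A-C was 0.63 (SE 0.16, adjusted p = 0.0448), and that in D-F 0.20 (interval -0.11 to 0.50, adjusted p = 0.582). The 2 changes were not shown to differ, since the difference of -0.44 (interval -0.88 to 0.00) had an adjusted p of 0.34 in edgeR. Both passes of TIMP1 were lost when any one of 11 of the 12 libraries, that is any but C1, was left out, with the number as a replicate block (adjusted p = 0.0915 and 0.0924), without the low-count filter and in limma on TPM. At the low dose its log2 change was 0.07 (SE 0.11, adjusted p = 0.851).

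MMP2 was lower at the high dose by 1.46-fold (log2 -0.55, SE 0.14, adjusted p = 0.0364, edgeR). Its counts were 110 and 108 in A, 54 and 72 in B, 63 and 42 in C, 1511 and 2089 in D, 1214 and 1129 in E, and 1100 and 1007 in F. As normalized CPM it went from 8.86 and 6.97 to 4.48 and 4.99 and to 5.68 and 4.30 in A-C, and from 100 and 135 to 103 and 89.8 and to 91.6 and 81.4 in D-F. Both treated groups lay below the controls in A-C and the high dose did in D-F, where E1 lay above D1. The log2 change was -0.66 (SE 0.22, adjusted p = 0.105) in A-C and -0.44 (SE 0.17, adjusted p = 0.199) in D-F at the high dose, and -0.51 (SE 0.14, adjusted p = 0.0773) on average at the low dose. The pass at the high dose was lost with the replicate block (adjusted p = 0.0669), in the compared groups alone (0.0727), in limma on TPM (0.112 and 0.117) and without any one of A1, B1, B2, C2, D2, E1, E2, F1 or F2 (up to 0.12).

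**Figure D4:**
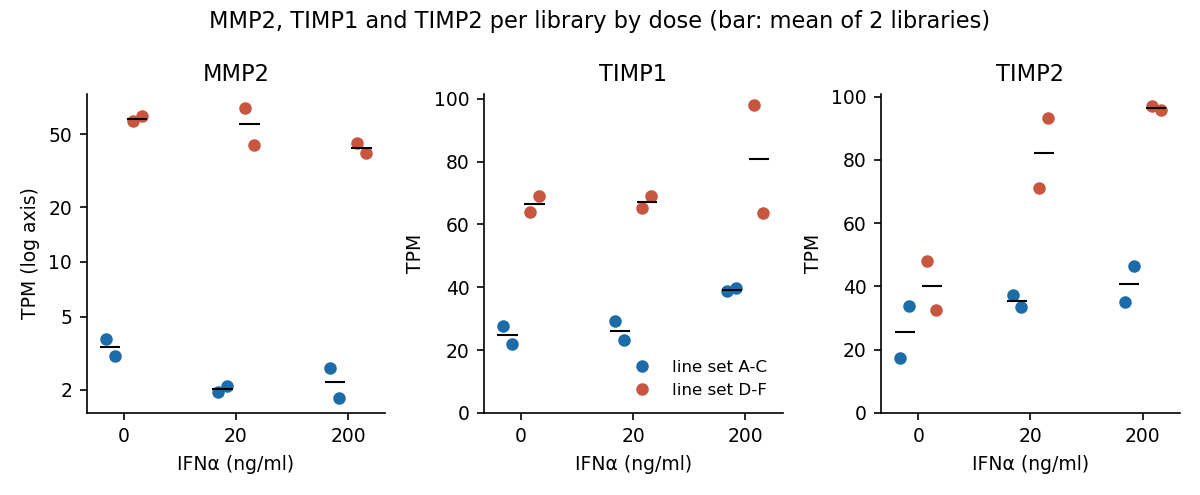
Level (TPM) of MMP2 (log axis), TIMP1 and TIMP2 (linear axes) in each library against IFNα dose, with 2 libraries for each dose and line set and black bars for their means. MMP2 separates the line sets at every dose, and TIMP2 in D-F goes from 48.0 and 32.4 TPM to 97.0 and 95.7 TPM.

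MMP14 did not pass at either dose, with a log2 change of -0.04 (interval -0.19 to 0.10) at the high and 0.04 (-0.11 to 0.18) at the low dose. Its 12 libraries ranged from 83.5 to 107 TPM. MMP1 held 10 to 20 counts in each library and changed by 0.25 (interval -0.39 to 0.89) at the high and 0.26 (-0.38 to 0.89) at the low dose. MMP7 in A-C held 44 and 40, then 34 and 28, then 29 and 31 counts, with a log2 change of -0.08 (interval -1.11 to 0.95) at the high dose.

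The remaining members were near the limit of detection. MMP10, stromelysin 2, held 0 to 10 counts in each library. MMP3, stromelysin 1, was seen with 2 counts in C1 and in no other library. MMP9, the gelatinase that leukocytes also release, held 8 and 19 counts in E1 and E2, 2 in B2, 2 in F2 and none in the other 8 libraries. With E1 and E2 so far apart no fold is given. The leukocyte markers summed to 8.78 TPM in E1 and 4.63 TPM in E2, 4.59 and 3.37 TPM in D1 and D2 and 5.19 and 4.14 TPM in F1 and F2. CSF1R held 47 and 72 counts in E1 and E2, 63 and 61 in D1 and D2 and 76 and 59 in F1 and F2. Of the 10 markers, 6 were never above 3 counts, and the part of these markers in the MMP9 counts was not tested.

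**Figure D5:**
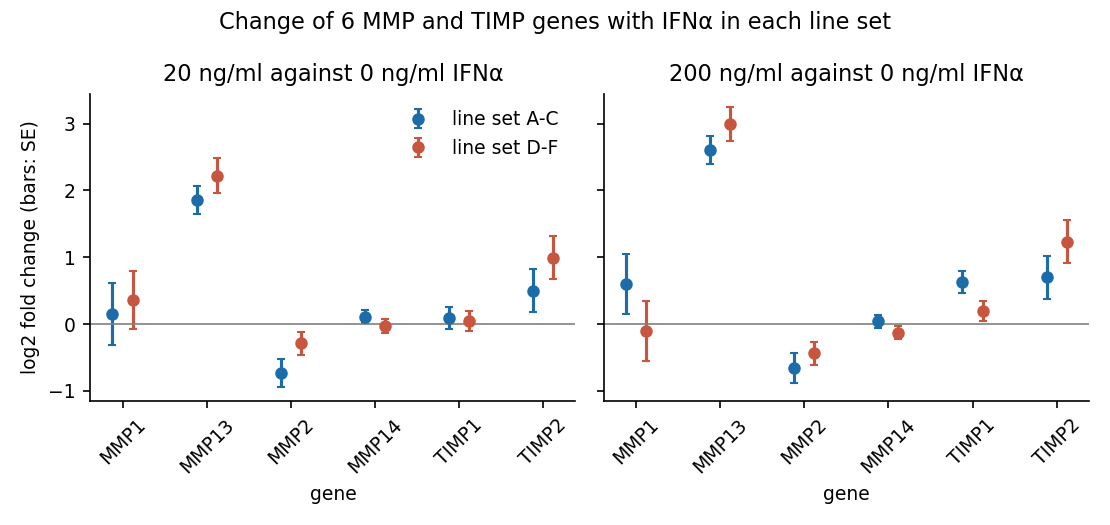
Log2 fold change of 6 genes at 20 (left) and 200 ng/ml (right) IFNα against the untreated libraries of the same line set, with SE bars and 2 libraries for each group. MMP13 lies between 1.85 and 2.99 in all 4 comparisons, MMP2 lies below 0, and MMP14 lies between -0.13 and 0.11.

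The summed level of TIMP1 and TIMP2 was set beside that of the MMPs. The 2 inhibitors summed to 44.6 and 55.9 TPM in A, 66.6 and 56.7 TPM in B and 74.0 and 86.1 TPM in C. In D-F the sums were 112 and 101 TPM in D, 136 and 162 TPM in E, and 195 and 159 TPM in F. They exceeded the MMP sums of the same libraries in E2 (146 TPM), F1 (156 TPM) and F2 (142 TPM), and in F1 the sum includes the TIMP1 level of 97.9 TPM. The sums leave out TIMP3, a further inhibitor, at 234 and 210 TPM in D, 161 and 148 TPM in E and 160 and 146 TPM in F. In A it stood at 3.87 and 3.45 TPM. In untreated D1 and D2, TIMP3 alone exceeded the MMP sums of 168 and 152 TPM. Which libraries had more inhibitor than MMP RNA in D-F thus depends on the inhibitors summed. These sums are levels of RNA, and neither was tested.

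The deposited transcripts divided the members unequally. MMP13-201 made up a median of 98.4% of MMP13 TPM (70.3% to 100% over the 12 libraries), and MMP14-201 94.5% (91.2% to 95.4%) of MMP14. MMP2-201, with a median of 94.6%, fell to 48.1% in D1 and 19.8% in E1, where MMP2-202 had 45.3% and 78.6%. TIMP1-201, with a median of 63.4%, was down to 3.85% in D2 and 1.79% in F1. In those 2 libraries TIMP1-202 had 82.9% and 78.3%, and in the other 10 it was listed at 0. F1 was also the library with the highest TIMP1 level, 97.9 TPM, from 433 counts, against 63.5 TPM from 383 counts in F2. The low TIMP2 count of A1 went with TIMP2-201, counted 107 times in A1 and 991 times in A2, while TIMP2-204 was counted 329 and 115 times. Replicates differed this much in the split, so no transcript was compared between doses. The gene counts equalled the sums of their transcripts.

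Genes whose profile over the 12 libraries lay nearest to a member were sought among 13034 genes, by the distance between centred log2 CPM values, which depends on both the line and the dose. For MMP13 they were GBP5 (distance 1.47), NEXN (1.81) and IL1R2 (1.84), where the MMP13 profile itself has a length of 6.06. GBP5, an interferon-inducible GTPase, and IL1R2, a decoy receptor for interleukin 1, changed by 4.02 and 2.34 on the log2 scale at the high dose and differed by -3.26 and -3.37 between D and A. For MMP2 the nearest were UPK3B (0.654), EPB41L1 and ANK1, for TIMP1 KIAA1217 (0.391), KMT2E and SEPT7P2, and for TIMP2 ZNF107 (0.837), SETD2 and DCP1A. The distance of MMP14 to VPS54, 0.21, says little, since the MMP14 profile is almost flat, with a length of 0.335.

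The further members of the family did not pass after IFNα. Of 15 further MMP genes 7 had enough counts (MMP11, MMP15, MMP16, MMP17, MMP19, MMP25 and MMP28). On average over the line sets none passed at either dose in edgeR, DESeq2 or limma, while 1 passed in DESeq2 at the high dose within A-C. Their average had a median log2 change of -0.04 at the high and -0.11 at the low dose. The unadjusted edgeR p of the fit across all genes was at most 0.05 for MMP28 at the high dose (log2 0.68) and for MMP25 at the low dose (-2.52, with 0 to 20 counts per library). Between the untreated lines 4 passed in edgeR and 3 in each of DESeq2 and limma, a share close to the 46.4% of all tested genes. MMP17, a membrane-anchored enzyme, was 3.79-fold higher in D, MMP25 3.87-fold higher with 15 and 20 counts against 4 and 4, and MMP19 went from 0 and 4 counts in A to 69 and 57 in D. MMP16, a membrane-type enzyme like MMP14, was 2.30-fold lower.

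TIMP3, the inhibitor that binds to the matrix, differed between the lines by more than MMP2 did. It held 139 and 160 counts in A and 9337 and 8808 in D, a 55.2-fold difference (log2 5.79, SE 0.10, adjusted p = 5.61e-09, edgeR). With a level of 234 and 210 TPM it exceeded MMP14 in untreated D-F, while it stood at 3.87 and 3.45 TPM in A. At the high dose it rose in A-C (log2 0.66, SE 0.10, adjusted p = 0.00529, edgeR) and fell in D-F (-0.62, SE 0.08, adjusted p = 0.00197, edgeR). The fall in D-F did not pass in limma, and the average at the high dose, 0.02, did not pass. At the low dose the average was -0.28 (adjusted p = 0.0405, edgeR) and did not pass in DESeq2 or limma. TIMP4 was 7.27-fold higher in D than in A (131 and 160 against 11 and 26 counts) and did not pass at either dose. RECK, a membrane-anchored inhibitor, passed in none of these comparisons.

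Genes that activate proMMPs or hold them at the cell surface changed in part. Of 17 tested of 20, 7 passed at the high dose, 5 upward and 2 downward, and 3 at the low dose, all upward, with medians of 0.06 and 0.04, where 9.55% and 3.93% of all tested genes passed. At the high dose SERPINB2, an inhibitor of plasminogen activators (log2 2.18, adjusted p = 0.0288, from 0 to 48 counts per library), rose, as did PLAUR, the urokinase receptor (0.77, adjusted p = 0.00383), while ITGAV, an integrin chain, fell by 0.51 (adjusted p = 0.0136). PLAUR and ST14, which encodes the protease matriptase, were among those that passed at the low dose (0.62 and 0.41). Between the untreated lines 15 of the 17 passed, where 46.4% of all tested genes did. Of the largest differences, CTSB, a lysosomal protease, was 9.61-fold lower in D, and KLK5, a secreted serine protease, held 192 and 351 counts in A and 0 in all 6 libraries of D-F.

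Among the matrix proteins that MMPs cut, 7 of 17 tested passed at the high dose, 4 upward and 3 downward, and 3 at the low dose, all upward, where 9.55% and 3.93% of all tested genes passed. In limma 4 passed at the high dose. LAMA3, a chain of the laminin of the epithelial basement membrane, rose by 0.75 (SE 0.06, adjusted p = 8.35e-05) at the high and by 0.62 at the low dose, and COL17A1, a hemidesmosomal collagen, rose by 0.49 and 0.42. COL5A1, a fibrillar collagen chain, fell by 0.49 (adjusted p = 0.00383) and LAMA5 by 0.41 at the high dose. Both falls passed in edgeR in A-C (-0.79, adjusted p = 0.00377, and -0.62, adjusted p = 0.0129). In D-F neither did (-0.19, adjusted p = 0.387, and -0.19, adjusted p = 0.411). The difference between the line sets passed for neither gene (adjusted p = 0.0859 and 0.195, edgeR). The median over the list was -0.05 at the high and 0.02 at the low dose.

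Of the AP-1 and ETS factors, the best known regulators of MMP promoters, 3 of 14 tested passed at the high dose. JUN rose by 0.55 (SE 0.09, adjusted p = 0.00434) and ETS2 by 0.47 (SE 0.07, adjusted p = 0.00256), and both rose at the low dose as well (0.61 and 0.50). At the high dose both passed in D-F, by 1.10 for JUN and 0.73 for ETS2, and neither passed in A-C, where JUN changed by 0.00 (SE 0.12) and ETS2 by 0.20 (SE 0.09, adjusted p = 0.245). FOSL2 fell by 0.87 (SE 0.12, adjusted p = 0.00165), from 38.8 to 44.3 TPM in A to 10.7 to 14.1 TPM in C, whereas in D-F it went from 22.3 to 26.6 TPM to 31.7 to 32.7 TPM. The median over the list was -0.12 at each dose. FOSL2 was also the one gene of these 5 pathway lists that differed between the doses (log2 -1.06, adjusted p = 0.0141, edgeR). Between the untreated lines 6 of the 14 passed, a share close to the 46.4% of all tested genes, among them JUN, 4.45-fold lower in D, and ETS1, 3.73-fold higher.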

How the data were processed

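RNA of 2 HNSCC lines was sequenced by the authors from rRNA-depleted, strand-specific libraries. The submitters' processing notes name Trimmomatic 0.36, HISAT2 2.1.0, StringTie 1.3.3b and the build GRCh38.p10. For genes and for transcripts, the authors deposited estimated counts that are whole numbers without depth scaling. TPM and FPKM values, which the authors scaled for length and depth, were deposited beside them, and FPKM was not used. The gene counts equalled the transcript sums, so errors in dividing reads between transcripts of one gene change TPM but not its gene count. Reads divided wrongly between genes that share sequence, such as MMP3 and MMP10, can change the gene counts as well.

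Libraries were grouped by the letter in their labels and all 12 entered one edgeR 4.0.16 fit (R 4.3.3) of 6 groups with TMM normalization, filterByExpr and Benjamini-Hochberg adjustment over 19944 genes. SE is the log2 change divided by the square root of F, and intervals span 2 SE to each side. Where all libraries of a group had 3 counts or fewer, a fold was computed against a floor of 3 counts per library, which covers counting error only. DESeq2 1.42.0 and limma 3.58.1 on log2(TPM + 0.1) or log2(TPM + 1), where a fold understates the change of low genes, were alternatives, beside other scaling, no filter, the compared groups alone, a replicate block and leaving out each library.

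The fits were tested on simulated data for the high dose, where edgeR recovered 163 of 200 changed genes among 19944 with 7 false calls, DESeq2 167 with 24 and limma 159 with 6. The changed genes had a mean of at least 50 counts and the same fold in both line sets. Means and spread came from the edgeR fit, and limma ran on CPM there. The recovery thus does not cover low-count members such as MMP1 and MMP7, changes that differ between the lines, or limma on TPM. Sequences came from GENCODE release 29 transcripts (GRCh38) and RefSeq promoters (GRCh38.p14, 4 of the 10 members matched). Figures and sequence searches used matplotlib 3.10.9, numpy 2.4.6 and pandas 2.3.3 under Python 3.11.15.

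All 10 members are named. From each other list, up to 4 genes per comparison past the threshold with the largest change are named, beside every tested MMP and TIMP family gene and the 3 nearest profiles of each member with a mean of at least 50 counts. RECK was tested with the inhibitors. The values of some genes of these lists are not reported here. The members and lists were chosen with earlier results of these data known. With 2 replicates for each letter, their number limits the precision.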

Additional observations from a re-analysis of the deposited data

Results flagged for a closer look

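No member's change with IFNα differed between the line sets in a test, and no group has enough libraries for a check of outlying samples. Among the genes of the pathway lists, 6 changed differently in the line sets at the high dose by the interaction term of edgeR, given here for 4 of them as the log2 change in D-F minus that in A-C. In DESeq2 15 genes of these lists passed this test at the high dose, and in limma 4. TIMP3 differed by -1.28 (SE 0.13, adjusted p = 0.00287), with a rise in A-C and a fall in D-F. FOSL2 differed by 2.26 (SE 0.23, adjusted p = 0.00394), with a fall of 2.00 in A-C and a change of 0.26 (SE 0.16, adjusted p = 0.456) in D-F. SERPINE2, an inhibitor of serine proteases, differed by 0.82 (SE 0.15, adjusted p = 0.0358) and JUN by 1.10 (SE 0.18, adjusted p = 0.0198), and the change was the higher one in D-F for both. At the low dose 0 of 58 genes of these lists passed this test in edgeR, while 13 had an unadjusted p of at most 0.05 and 4 passed in DESeq2 and 0 in limma.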

How the results depend on the processing

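The rise of MMP13 at either dose, in each line set and on average, and the differences of MMP2, TIMP1, MMP13 and MMP7 between the untreated lines passed under all 7 alternatives and without any one library. For MMP7, which had enough counts only through A-C, these passes add no support. The number of members that passed at the high dose was 4, but 2 with a replicate block (MMP13 and TIMP2) and in limma on log2(TPM + 0.1) and log2(TPM + 1), 1 in the compared groups alone, and 1 to 4 with a library left out. In A-C at the high dose it was 2, but 1 without the filter, with the block, in the compared groups alone and in limma, and 1 to 2 with a library left out. In D-F it was 1, but 2 without the filter, in DESeq2 and in the compared groups alone (TIMP2 in addition). DESeq2 gave 3 at the low dose, 2 in D-F at the low dose and 1 between the doses. Leaving out a library gave 1 to 2 in D-F at each dose and on average at the low dose, where A1 or A2 made the difference.

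Direction turned for changes that passed nowhere. Not all of them were near 0 in the main fit. The differences between the line sets at the high dose were 0.53 for TIMP2, 0.38 for MMP13 and 0.21 for MMP2 there. With the block the MMP1 difference between untreated lines was -0.11. In limma MMP14 at the high dose was 0.01, and with log2(TPM + 1) the difference between the line sets was -0.07 for MMP13 and -0.06 for MMP2. With a library left out the ranges were -0.12 to 0.15 for MMP14 untreated, -0.11 to 0.02 at the high and -0.03 to 0.12 at the low dose, -0.11 to 0.51 for MMP1 and -0.01 to 0.13 for TIMP1 at the low dose, and -0.01 to 0.45 for MMP2 and -0.11 to 0.97 for TIMP2 between the line sets. The untreated difference of TIMP2 ranged from 0.00 without A1 to 1.09 without A2. The cause was not tested.

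Same-numbered libraries did not deviate together (correlations of -0.043 to 0.056), so the numbers do not pair them. Over all genes, 1905 passed at the high dose but 1110 and 1163 in limma, 784 at the low dose but 449 and 494 in limma, and 27 between the doses but 167 in DESeq2 and 0 with the block. In A-C at the high dose 1432 passed, but 210 in the compared groups alone, 803 with the block and 896 and 904 in limma, and in D-F 1164, but 701 and 778 in limma. At the low dose 221 passed in A-C, but 513 in DESeq2, and 672 in D-F, but 397 in limma. The change differed between the line sets for 375 genes at the high dose, but for 942 in DESeq2 and 88 with the block, and for 74 at the low dose, but 333 and 35. Limma on TPM put the median of all genes between the untreated lines at 0.14 or 0.12, beside 0.01 in the main fit. By counts instead of TPM, MMP14-201 made up a median of 99.0% of MMP14.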
